A study of Mus musculus with 12 samples.

Results

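The genes described here make sterols and long-chain fatty acids, and sense and move cholesterol, in cultured mouse B cells. There are 43 of them, listed by symbol, of 34650 gene names on the array. They were found as the probes whose gene name was a listed symbol: 65 probes in all, of which 62 passed the filter on dim probes, and 42 of the 43 genes could be tested. The exception was Abca1, a cholesterol exporter, which was well above background on 2 of the 3 wild-type control arrays, none of the wild-type IL-4 arrays, 1 of the 3 knockout control arrays and 2 of the 3 knockout IL-4 arrays.

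Messenger RNA was measured on 12 Agilent 1-colour arrays, with 3 arrays in each of 4 groups. Splenic B cells of female BALB/c mice aged 9 weeks were purified by removing the other cell types. All cultures, controls included, received anti-CD40 (10 µg/ml) plus LPS, a bacterial lipopolysaccharide (2 µg/ml), and lasted 4 days. The groups were wild-type cells without IL-4 (wild-type control), wild-type cells with IL-4 at 25 ng/ml (wild-type IL-4), STAT6 ko cells without IL-4 (knockout control) and STAT6 ko cells with IL-4 at 25 ng/ml (knockout IL-4). STAT6 is a transcription factor through which the IL-4 receptor changes gene expression in lymphocytes, and the study asked which genes depend on it. The sources used here do not say whether the 3 samples of a group came from separate mice, so the p-values measure the spread between these samples, which may be technical.

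Cholesterol is made from acetyl-CoA through mevalonate and squalene, and the enzymes of this route share a feedback control. When membrane sterol is low, SCAP escorts SREBP transcription factors out of the endoplasmic reticulum and they switch on the pathway's genes, while INSIG proteins hold the complex back when sterol is plentiful. Liver X receptors work the other way: they are activated by oxysterols and switch on genes for cholesterol export. Activated B cells grow and divide, and need both sterols and fatty acids for new membrane.

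The array files bear out the labels as far as these probes go. All 3 Stat6 probes were lower in the knockout, and the brightest read a log2 level of 3.11 to 3.23 in wild-type controls against 1.13 to 1.30 in knockout controls (log2 difference -1.94, adjusted p = 1.13e-06 by limma). Signal remained above background for all 3 probes in the knockout. Where the deleted part of the gene lies is not given in the sources used here, so these probes do not show that the protein is missing. All 6 B cell markers were above background on every array, with a summed log2 level of 10.1 to 10.4. Markers of other cells were also present: 5 of 6 T cell markers (Cd8a on no array), 2 of 4 NK cell markers (Ncr1 and Klrb1c on no array), 6 or 7 of 7 macrophage markers, 3 or 4 of 4 dendritic cell markers, 1 or 2 of 4 granulocyte markers and 1 or 2 of 3 erythroid markers. The array's 75th percentile lay between 296 and 356 intensity units, 40.7% to 44.0% of spots were well above background and none was saturated. The arrays came on 2 slides: the 6 wild-type arrays shared slide 1 with knockout controls 1 and 2, while knockout control 3 was on slide 2 with all knockout IL-4 arrays.

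Levels below are log2 signals relative to the array's 75th percentile, which is 0. A gene is said to have risen or fallen, or to be higher or lower, where limma gave an adjusted p below 0.05 (Benjamini-Hochberg over all 16497 genes tested), whatever the size of the change. 
In wild-type cells most of these genes were lower with IL-4. Of the 42 tested, 26 fell and 6 rose, where 30.8% of all genes tested fell and 26.4% rose. The median log2 change of the 42 was -0.45, against -0.04 over all genes. Changes of at least 2-fold were fewer: 5 members fell (6.95% of all genes) and 2 rose (5.72%). The levels of the 2 wild-type groups did not overlap for 35 of 42 members, beside 69.2% of all genes. The direction differed by role: 15 of the 17 enzymes of the sterol pathway fell and none rose, whereas 6 of the 9 tested genes for sterol sensing, transport and storage rose and 1 fell. Cell type markers moved with IL-4 in wild type too, in mixed directions. Of the 6 B cell markers 2 rose and 3 fell (median log2 change -0.30), and 1 of 5 tested T cell markers rose. The summed log2 level of the macrophage markers was 4.70 to 4.76 in this group against 5.97 to 6.06 on the other arrays. Of 6 tested, 3 fell, most of all Mpeg1 (log2 -3.73), and Cd14 rose (0.38). Of 4 dendritic cell markers 3 rose and Flt3 fell (-1.65), and Itgax was above background in no other group. Both tested NK cell markers fell, Prf1 by 0.46 and Nkg7 by 0.28 on the log2 scale. The part of these shifts in the results was not tested. In bulk RNA, fewer cells of a type and less RNA per cell cannot be told apart.

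**Figure D1:**
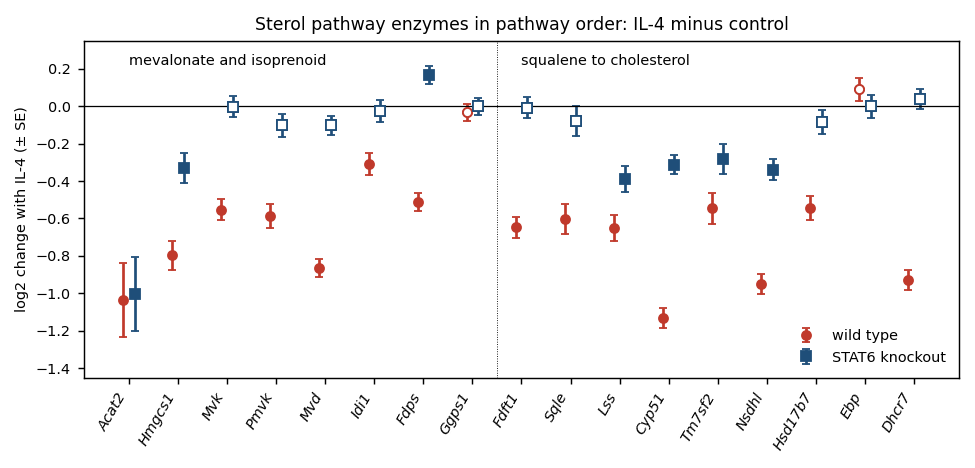
The log2 change with IL-4 (vertical axis, IL-4 minus control, bars ± SE of the limma fit, 3 arrays a group) is drawn for the 17 sterol pathway enzymes in pathway order, in wild type (red circles) and STAT6 knockout (blue squares). Open symbols did not pass an adjusted p of 0.05. 15 of 17 wild-type points are filled and below 0, and in the knockout 6 are filled below 0 and 1 above.

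The mevalonate and isoprenoid enzymes turn acetyl-CoA into the isoprenoid units from which sterols and protein lipid anchors are built. 7 of the 8 fell in wild-type cells. Mvd, mevalonate diphosphate decarboxylase, had the smallest adjusted p of the group. Its probe lies at chr8:124957750-124957809 (minus strand, mm9). Mvd read 4.79, 4.91 and 4.91 in wild-type controls, 3.98, 4.04 and 4.01 with IL-4, 4.95, 5.02 and 5.07 in knockout controls and 4.93, 4.90 and 4.90 in knockout cells with IL-4. The 3 wild-type IL-4 arrays were low and apart from the other 9. The wild-type fall was 1.82-fold (log2 -0.87, SE 0.049, adjusted p = 1.6e-07 by limma), and in the knockout the log2 change was -0.10 (adjusted p = 0.122 by limma).

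Acat2, the cytosolic acetoacetyl-CoA thiolase that starts the route, fell in both genotypes. Its probe is at chr17:13136482-13136541 (minus strand, mm9). Acat2 read -1.53, -1.55 and -1.56 in wild-type controls, -2.28, -2.66 and -2.80 with IL-4, -1.52, -0.77 and -1.55 in knockout controls and -2.34, -2.12 and -2.40 in knockout cells with IL-4. Every IL-4 array was lower than every control array, whichever the genotype, and knockout control 2 was the highest of all. The log2 change was -1.03 in wild type (SE 0.20, adjusted p = 0.00113 by limma) and in the knockout Acat2 fell 2.01-fold (adjusted p = 0.00247). The size depended on the processing. Over 22 alternatives the log2 change ran from -1.18 to -0.55 in wild type and from -1.14 to -0.57 in the knockout. With slide as a block the knockout value was -0.74 and did not pass (adjusted p = 0.058).

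Hmgcs1, the HMG-CoA synthase that precedes the committed step, fell 1.74-fold in wild type (log2 -0.80, SE 0.080). Both mevalonate kinases fell, Mvk by 0.55 and Pmvk by 0.59 on the log2 scale. Fdps, which makes farnesyl diphosphate, fell by 0.51 and Idi1, the isopentenyl diphosphate isomerase, fell by 0.31 on the log2 scale. Ggps1, which makes geranylgeranyl diphosphate for protein lipid anchors and so leads away from sterols, was the one enzyme of the group that did not pass (log2 -0.03, 95% confidence interval -0.13 to 0.07). The 3 kept Ggps1 probes disagreed: another rose by 0.21 on the log2 scale (adjusted p = 0.00305 over probes by limma).

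From squalene onwards, 8 of 9 enzymes fell. Cyp51, lanosterol 14-alpha-demethylase, had the smallest adjusted p and the largest fall of the 17 enzymes. Its probe is at chr5:4081471-4081530 (minus strand, mm9). Cyp51 read 2.22, 2.31 and 2.26 in wild-type controls, 1.12, 1.13 and 1.15 with IL-4, 2.25, 2.31 and 2.17 in knockout controls and 2.01, 1.90 and 1.89 in knockout cells with IL-4. IL-4 arrays lay below control arrays in both genotypes, and the wild-type IL-4 arrays lay far below the knockout ones. It fell 2.19-fold in wild type (log2 -1.13, SE 0.052, adjusted p = 3.05e-08 by limma) and 1.24-fold in the knockout (log2 -0.31, adjusted p = 8.98e-04).

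Of the other enzymes of this stretch, Nsdhl, which removes methyl groups from the sterol nucleus together with its partners, fell 1.93-fold (log2 -0.95, SE 0.055), and Dhcr7, which makes cholesterol from 7-dehydrocholesterol, fell 1.91-fold (log2 -0.93, SE 0.054). Fdft1 (squalene synthase), Sqle (squalene epoxidase) and Lss (lanosterol synthase) fell by 0.65, 0.60 and 0.65 on the log2 scale. Tm7sf2, a sterol C14 reductase, and Hsd17b7, a sterol 3-keto reductase, fell by 0.55 and 0.54 on the log2 scale. Ebp, a sterol isomerase, did not pass (log2 0.09, 95% confidence interval -0.05 to 0.23). Averaged over the 17 enzymes, the log2 level relative to the wild-type control mean was -0.63 to -0.62 on the wild-type IL-4 arrays.

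The stretch of 200 bases before the start of transcription is shown for 6 genes: Hmgcs1, Mvd and Cyp51 because they stand for the enzymes that fell, Insig1 and Srebf2 because they control the pathway, and Elovl7 because it had the largest fitted fall. Sequences are from RefSeq, build GRCm38.p6, written from position -200 to -1 in the direction of transcription. Capitals mark matches on either strand to the letters TCACNCCA (a core of the sterol regulatory element), CCAAT (the CCAAT box, ATTGG when it lies on the other strand), CACGTG (an E-box) and TTC and GAA with any 4 bases between them (a STAT6-type site).

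Hmgcs1, chr13:119690151-119690350 (+ strand): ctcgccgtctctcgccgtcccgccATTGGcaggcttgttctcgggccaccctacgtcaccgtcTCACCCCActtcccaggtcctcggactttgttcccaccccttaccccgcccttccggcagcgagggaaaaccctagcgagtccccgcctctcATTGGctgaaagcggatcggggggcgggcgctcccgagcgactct
Mvd, chr8:122443423-122443622 (- strand): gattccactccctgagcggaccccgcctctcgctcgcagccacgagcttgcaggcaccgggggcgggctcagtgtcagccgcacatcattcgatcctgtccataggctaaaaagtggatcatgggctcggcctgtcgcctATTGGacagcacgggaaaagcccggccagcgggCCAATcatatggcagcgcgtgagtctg
Cyp51, chr5:4104698-4104897 (- strand): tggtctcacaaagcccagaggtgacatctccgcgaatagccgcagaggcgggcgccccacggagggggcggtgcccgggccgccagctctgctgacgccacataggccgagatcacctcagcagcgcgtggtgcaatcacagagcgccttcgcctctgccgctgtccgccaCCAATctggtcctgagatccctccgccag
Insig1, chr5:28071212-28071411 (+ strand): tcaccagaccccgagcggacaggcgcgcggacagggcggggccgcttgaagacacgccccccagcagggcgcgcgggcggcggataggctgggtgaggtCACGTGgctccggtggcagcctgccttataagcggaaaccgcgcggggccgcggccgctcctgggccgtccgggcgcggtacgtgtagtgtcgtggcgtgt
Srebf2, chr15:82147069-82147268 (+ strand): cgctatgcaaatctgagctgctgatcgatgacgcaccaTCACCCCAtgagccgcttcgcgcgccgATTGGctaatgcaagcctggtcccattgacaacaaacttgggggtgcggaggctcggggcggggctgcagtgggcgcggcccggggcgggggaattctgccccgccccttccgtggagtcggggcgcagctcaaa
Elovl7, chr13:108214204-108214403 (+ strand): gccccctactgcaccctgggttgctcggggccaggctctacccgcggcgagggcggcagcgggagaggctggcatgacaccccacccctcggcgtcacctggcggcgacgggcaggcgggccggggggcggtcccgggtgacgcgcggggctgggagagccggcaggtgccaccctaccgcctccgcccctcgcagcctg

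In this window Hmgcs1 and Srebf2 hold the sterol regulatory core and a CCAAT match, Cyp51 and Mvd hold CCAAT matches without the core, Insig1 holds an E-box and Elovl7 none of the 4 motifs. Over 250 bases before the start, the table had entries for 34 of the 43 genes and for 27025 genes in all. The sterol core was in 2 of 34 members (5.88%, against 4.2% of all genes), namely Hmgcs1 and Srebf2. CCAAT was in 24 of 34 (70.6%, against 37.5%), and in 13 of the 14 sterol pathway enzymes that had an entry (92.9%). The E-box was in 6 of 34 (17.6%, against 6.86%) and the STAT6-type site was in 1, Ggps1 (2.94%, against 6.76%). A match is a description of letters in this window only.

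**Figure D2:**
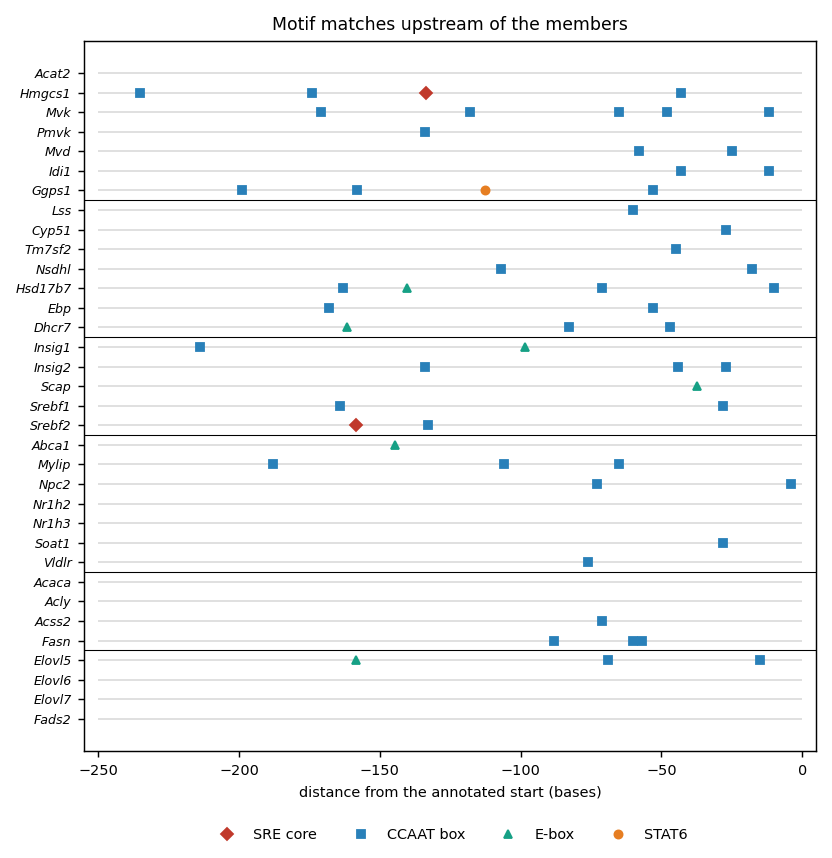
Positions of motif matches are drawn against distance from the annotated start in bases (horizontal axis) for the 34 members with a RefSeq promoter entry, grouped by role with lines between the groups. Genes with more than 1 annotated start (7 of them) have all matches on one line. CCAAT matches (squares) occur in 13 of the 14 sterol pathway enzymes and the sterol core (diamonds) in Hmgcs1 and Srebf2.

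Control of the pathway lies with SREBP proteins, their escort and their anchors, and 3 of these 5 genes fell in wild-type cells. Insig1, which retains the SREBP complex when sterol is high and is itself switched on by SREBP, had the smallest adjusted p. Insig1 (probe at chr5:28404246-28404305, plus strand, mm9) read 1.15, 1.17 and 1.41 in wild-type controls, 0.65, 0.48 and 0.80 with IL-4, 1.35, 1.36 and 1.25 in knockout controls and 0.76, 0.91 and 0.91 in knockout cells with IL-4. All IL-4 arrays lay below all control arrays. The log2 change was -0.60 in wild type (SE 0.094, adjusted p = 2.93e-04 by limma) and -0.46 in the knockout (adjusted p = 0.00298). Srebf1, the SREBP of fatty acid synthesis, fell by 0.35 and Scap, the escort, fell by 0.26 on the log2 scale in wild type. Srebf2, the SREBP of sterol synthesis, did not pass in wild type (log2 -0.09) and rose in the knockout (log2 0.36, SE 0.049, adjusted p = 3.08e-04 by limma). Insig2, a second retention protein, did not pass in either (log2 0.20 and 0.16).

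Genes for sterol sensing, transport and storage went mostly the other way. Vldlr, a receptor that takes up lipoproteins, rose most. Vldlr (probe at chr19:27324050-27324109, plus strand, mm9) read -0.37, -0.45 and -0.47 in wild-type controls, 2.42, 2.34 and 2.34 with IL-4, 0.14, 1.13 and 1.48 in knockout controls and 0.46, 0.66 and 1.78 in knockout cells with IL-4. Wild-type IL-4 arrays stood above all others, and the knockout arrays were spread widely, with SDs of 0.70 and 0.71 against 0.052 and 0.048 in wild type. The wild-type rise was 6.92-fold (log2 2.79, SE 0.36, adjusted p = 8.37e-05 by limma). The fit shares its estimate of the spread over all 4 groups, so this SE includes the wide spread of the knockout arrays. A second Vldlr probe, not well above background on any wild-type control array, rose by at least 1.83-fold. In the knockout IL-4 changed the first, brighter probe by 0.05 on the log2 scale (SE 0.36, adjusted p = 0.925 by limma).

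Abcg1, which exports cholesterol to lipoproteins and is a liver X receptor target, also rose in wild type. Abcg1 (probe at chr17:31252580-31252639, plus strand, mm9) read -0.64, -0.81 and -0.90 in wild-type controls, 0.82, 0.82 and 0.80 with IL-4, -0.70, -0.41 and 0.015 in knockout controls and -0.10, -0.07 and 1.11 in knockout cells with IL-4. The wild-type groups were far apart, and the knockout groups overlapped, with knockout IL-4 array 3 alone above the rest. The rise was 3.02-fold in wild type (log2 1.60, SE 0.29, adjusted p = 8.14e-04 by limma), and in the knockout the log2 change was 0.68 (adjusted p = 0.0845).

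Stard4, a carrier that moves cholesterol between membranes, was the one gene of this role that fell. Stard4 read 3.81, 3.85 and 3.69 in wild-type controls, 2.75, 2.81 and 2.60 with IL-4, 3.61, 3.73 and 3.62 in knockout controls and 3.48, 3.39 and 3.61 in knockout cells with IL-4. The wild-type IL-4 arrays were below all others. It fell 2.09-fold in wild type (log2 -1.07, SE 0.077, adjusted p = 9.53e-07 by limma), and the knockout value was -0.16 (adjusted p = 0.12). Npc1 and Npc2, the lysosomal pair that releases cholesterol taken up by endocytosis, rose 1.53-fold (log2 0.61) and 1.32-fold (log2 0.40). Nr1h2, liver X receptor beta, rose by 0.52 and Mylip, which marks lipoprotein receptors for breakdown, by 0.26 on the log2 scale. Nr1h3, liver X receptor alpha (log2 -0.48), and Soat1, which esterifies cholesterol for storage (log2 -0.08), did not pass. The 2 kept probes of Nr1h3 differed in sign (-0.48 and 0.43).

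In fatty acid synthesis 3 of 4 genes fell in wild-type cells. Acly, which makes cytosolic acetyl-CoA from citrate, had the smallest adjusted p. Acly (probe at chr11:100337674-100337733, minus strand, mm9) read 5.85, 5.88 and 5.94 in wild-type controls, 5.44, 5.44 and 5.51 with IL-4, 5.92, 5.99 and 5.84 in knockout controls and 5.90, 5.94 and 5.84 in knockout cells with IL-4. The wild-type IL-4 arrays were below all others and the knockout groups overlapped. The wild-type change was -0.42 (SE 0.052, adjusted p = 5.44e-05 by limma) and the knockout change -0.02 on the log2 scale. A second, dimmer Acly probe also fell in wild type (log2 -0.46) but rose in the knockout (log2 0.26, adjusted p = 0.025 over probes by limma). Fasn, fatty acid synthase, fell by 0.80 (SE 0.19) and Acss2, which makes acetyl-CoA from acetate, fell by 0.32 (SE 0.12) on the log2 scale in wild type. The Acss2 call was marginal (adjusted p = 0.0479 by limma) and was kept in 8 of 22 alternatives, not with quantile, median or the authors' normalisation. Acaca, the carboxylase of the committed step, did not pass (log2 -0.06).

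Elongases and desaturases lengthen fatty acids and add double bonds, and 4 of 7 fell. Elovl7, a fatty acid elongase, had the largest fitted fall of the members. Elovl7 (probe at chr13:109073556-109073615, plus strand, mm9) read 0.34, 0.51 and 0.35 in wild-type controls, -4.45, -4.55 and -4.10 with IL-4, 0.12, -0.04 and 0.13 in knockout controls and 0.22, 0.24 and 0.41 in knockout cells with IL-4. The 3 wild-type IL-4 arrays were all not well above background, and all other arrays were. The level in wild-type cells with IL-4 was at least 18.8-fold lower than in wild-type controls (adjusted p = 2.65e-10 by limma), and at least 17.4-fold lower than in knockout cells with IL-4. Both bounds depend on the background treatment: with normexp background correction the wild-type log2 change was -2.66 and in the authors' deposited table it was -2.97, both smaller than the bound.

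Elovl6, which lengthens palmitate to stearate, read 1.39, 1.40 and 1.28 in wild-type controls, 0.22, 0.14 and 0.14 with IL-4, 1.17, 1.30 and 1.09 in knockout controls and 1.13, 1.03 and 0.88 in knockout cells with IL-4. Its probe is at chr3:129341248-129341307 (plus strand, mm9). The wild-type IL-4 arrays were again apart from all others. It fell 2.29-fold in wild type (log2 -1.19, SE 0.075, adjusted p = 3.28e-07 by limma) and the knockout change was -0.17 (adjusted p = 0.0882). Scd1 and Scd2, stearoyl-CoA desaturases whose genes lie on chromosome 19 with Scd4 between them, fell by 0.66 and 0.32 on the log2 scale. Elovl5 (-0.06), Fads1 (0.13) and Fads2 (-0.09), which act on polyunsaturated fatty acids, did not pass. A second Fads2 probe went the other way and rose by 0.27 (adjusted p = 0.00642 over probes by limma).

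**Figure D3:**
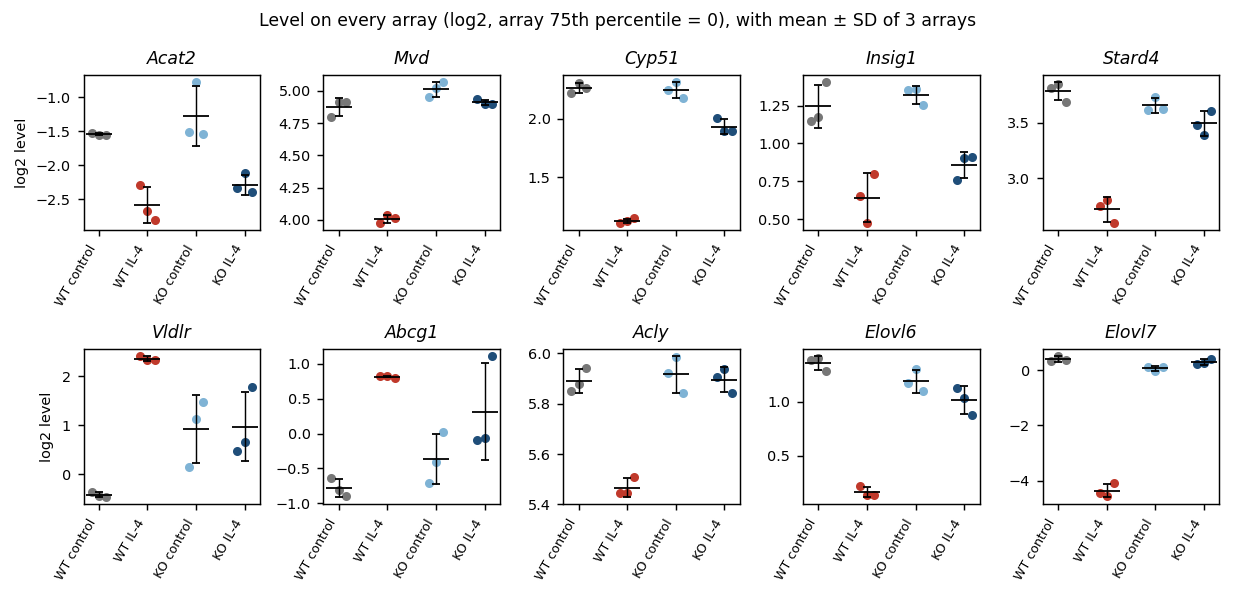
Log2 level on every array (vertical axis, array 75th percentile = 0, scale differs by panel) is drawn for 10 members, with 3 arrays a group as points and the mean ± SD as bars. Wild-type IL-4 arrays (red) are apart from wild-type controls in every panel, and Vldlr and Abcg1 spread widely in the knockout.

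In knockout cells the same treatment changed fewer of these genes. Of 42, 11 fell and 5 rose, where 14.7% of all genes fell and 27.5% rose, and the median log2 change was -0.01 against 0.05 over all genes. 1 member fell at least 2-fold (2.73% of all genes) and none rose that much (0.788%). The groups did not overlap for 17 of 42 members, beside 46.5% of all genes. The split depended on the scaling: with quantile normalisation 18 fell and 1 rose, with the authors' normalised values 10 fell and 1 rose, and with scaling to each array's median 2 fell and 10 rose, the last with an all-gene median of 0.20 in place of 0.05. Of the 11, only Acat2 and Insig1 passed with median scaling. Within slides, with slide as a block, 5 fell (Lss, Cyp51, Nsdhl, Srebf1 and Acss2) and 2 rose (Srebf2 and Acaca). That value compares the knockout IL-4 arrays with knockout control 3 alone on their slide.

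Among the sterol enzymes 6 of 17 fell in the knockout and 1, Fdps, rose (log2 0.17, adjusted p = 0.017 by limma). Besides Acat2 and Cyp51, those that fell were Hmgcs1 (log2 -0.33), Lss (-0.39), Tm7sf2 (-0.28) and Nsdhl (-0.34). The mean of the 17 enzymes relative to wild-type controls was -0.04 to 0.06 on the knockout control arrays and -0.22 to -0.12 on the knockout IL-4 arrays. Of the fatty acid genes, Fasn fell by 0.62 (adjusted p = 0.0249 by limma), Acss2 by 0.40 and Srebf1 by 0.27 on the log2 scale, while Acaca rose by 0.20 and Elovl5 by 0.30. Soat1 fell by 0.48 and Nr1h2 rose by 0.26 on the log2 scale. Most of these calls were not stable. Over 22 alternatives the call was kept in 6 for Acaca, 8 for Srebf1 and 14 each for Fasn, Acss2 and Soat1. It was kept in 16 for Nr1h2 and 19 for Elovl5. Of the sterol enzymes, the rise of Fdps was kept in 15, and not with quantile or the authors' normalisation. The falls were kept in 16 for Tm7sf2, 19 for Hmgcs1 and 21 each for Acat2, Lss, Cyp51 and Nsdhl. Fasn did not pass without knockout IL-4 array 3 (log2 -0.39) or with slide as a block (-0.29).

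**Figure D4:**
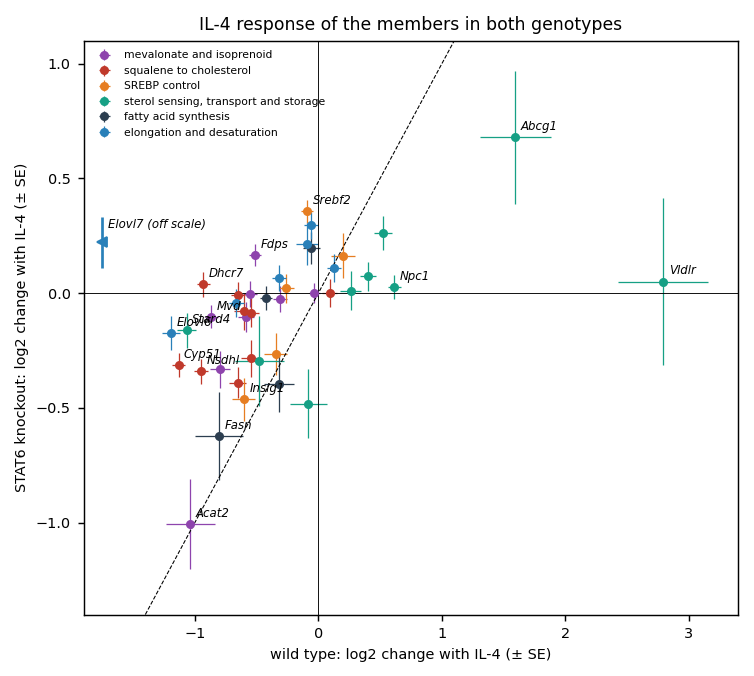
Each of the 42 members is a point with its log2 change with IL-4 in wild type (horizontal axis) and in the STAT6 knockout (vertical axis), bars ± SE of the limma fit, coloured by role, and the dashed line marks equal change. Elovl7 is off the scale on the left, drawn as a triangle with its knockout value. Acat2 lies near the dashed line, whereas Dhcr7, Mvd, Stard4 and Elovl6 lie near 0 on the knockout axis.

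The difference between the genotypes in their response was tested as an interaction, wild-type change minus knockout change. It was lower in wild type for 22 of 42 members and higher for 3, where 28.3% and 16.4% of all genes tested were, with a median of -0.28 against -0.10 over all genes. At 2-fold or more, 2 were lower (5.03% of all genes) and 1 higher (5.61%). 13 of the 17 sterol enzymes were among the 22, most of all Dhcr7 (log2 -0.97, SE 0.076, adjusted p = 4.51e-06 by limma) and Cyp51 (-0.82, adjusted p = 1.13e-05). For Nsdhl, which was among the 13, the result depended on the probe. A second kept Nsdhl probe differed by -0.17 and did not pass (adjusted p = 0.137 over probes by limma). Its log2 change was -0.72 in wild type and -0.55 in the knockout. With slide as a block the counts were 22 and 3 as well, and 21 of the 22 were shared. There too the knockout response compares its IL-4 arrays with knockout control 3 alone on their slide. Of the 26 members that fell in wild type, 20 passed this test in that direction, 10 also fell in the knockout and 1 (Fdps) rose there. The interaction contains the wild-type change by which the 26 were chosen, so the 20 are no separate support for that fall. The matching share among all genes that fell in wild type was not computed.

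For Elovl7 the size of the difference is not measured, since its wild-type IL-4 level was not above background: the fitted log2 value was -4.99, and -2.86 with normexp background correction (adjusted p = 7.67e-09 and 2.27e-10 by limma). Elovl6 differed by -1.02. Vldlr (2.74, adjusted p = 0.00179 by limma), Npc1 (0.59) and Npc2 (0.33) were higher in wild type. Srebf2 differed by -0.45 (adjusted p = 5.61e-04 by limma), with its rise in the knockout as the larger part. Some genes that fell in both genotypes did not pass: Acat2 differed by -0.03 (95% confidence interval -0.65 to 0.59), Insig1 by -0.14 (-0.43 to 0.16) and Fasn by -0.18 (-0.79 to 0.42). The intervals of Acat2 and Fasn include -0.48, the median difference of the 17 sterol enzymes. Abcg1 differed by 0.92 and did not pass (adjusted p = 0.092 by limma), but did without knockout IL-4 array 3, at 1.31. Lss passed narrowly at -0.26 (adjusted p = 0.0495) and not with slide as a block (adjusted p = 0.125).

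**Figure D5:**
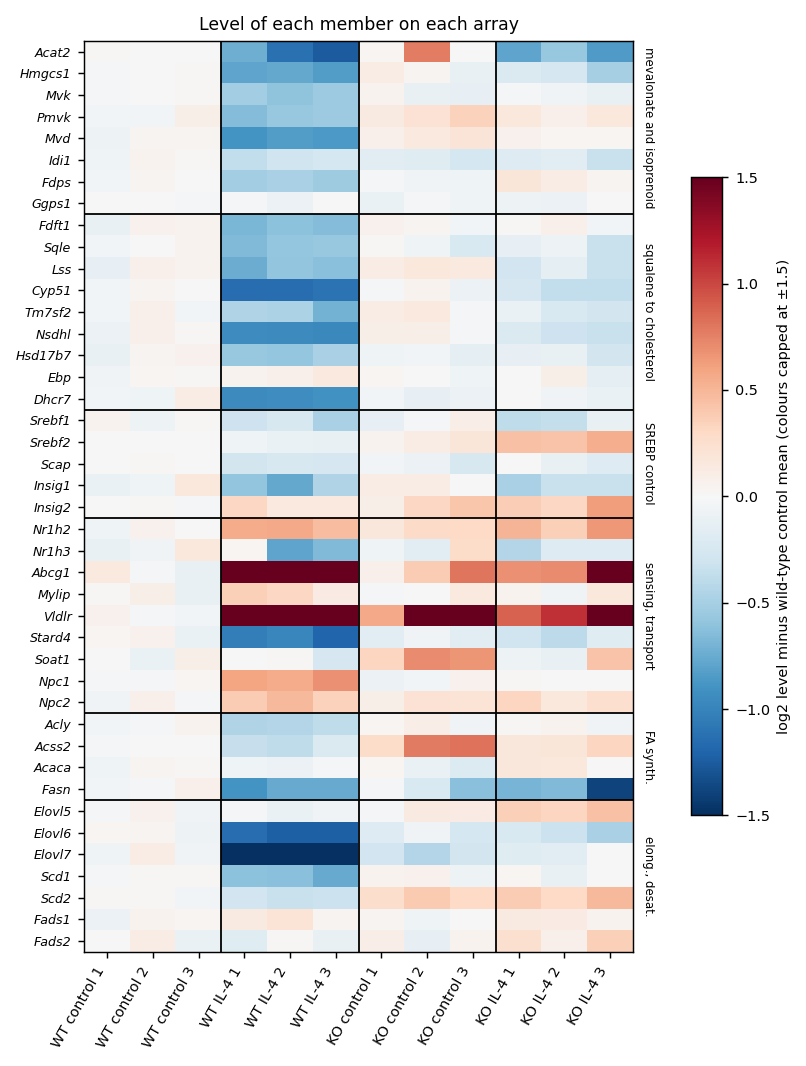
The log2 level of each of the 42 members (rows, grouped by role) on each array (columns, by group) is drawn relative to the wild-type control mean, with colours capped at 1.5 either way. Wild-type IL-4 columns are blue for most rows of the first 2 role groups and red for Abcg1 and Vldlr.

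Without IL-4 the genotypes differed little. 5 of 42 members were higher in the knockout and none lower, where 4.73% and 6.96% of all genes were: Vldlr (log2 1.34, SE 0.36), Acss2 (0.62), Soat1 (0.56), Scd2 (0.32) and Pmvk (0.23). Vldlr alone reached 2-fold (0.837% of all genes were that much higher). With slide as a block only Scd2 remained (log2 0.33, adjusted p = 0.0333 by limma), and with median scaling 3 were higher and 6 lower. For 14 of 42 members the 2 control groups did not overlap, beside 38.3% of all genes.

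With IL-4 in both, 23 of 42 members were higher in the knockout than in wild type and 2 lower, where 29.8% and 21.3% of all genes were, with a median of 0.36 against 0.06 over all genes. At 2-fold or more, Elovl7 was higher (4.63% of all genes) and Vldlr lower (5.05%). With slide as a block 23 were higher, 21 of them shared, and the same 2 lower. These 2 groups were on different slides throughout. The slide term therefore rests on knockout control 3 against knockout controls 1 and 2, and cannot separate slide from genotype independently. The levels of the 2 groups did not overlap for 28 of 42 members, beside 58.7% of all genes. The higher ones included 13 of the 17 sterol enzymes, for example Mvd (1.87-fold) and Dhcr7 (1.84-fold), and 6 of 7 elongases and desaturases, among them Elovl6 (1.80-fold) and Scd2 (1.63-fold). Among those 6, the Fads2 call was kept in 16 of 22 alternatives, and not with slide as a block. A second Fads2 probe differed by 0.04 on the log2 scale (adjusted p = 0.63 over probes by limma). The lower ones were Vldlr (2.63-fold lower) and Npc1 (1.53-fold lower). This comparison shares arrays with the wild-type IL-4 response and is no separate support for it.

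Other genes of lipid metabolism were read from 2 further lists. Of 30 tested genes for lipid synthesis outside the members, 11 rose and 10 fell in wild-type cells, where 26.4% and 30.8% of all genes did. Fads3, a desaturase whose gene neighbours Fads1 and Fads2 on chromosome 19, rose by 3.74 on the log2 scale (adjusted p = 2.85e-09 by limma), and Acsl1, which activates fatty acids by adding CoA, rose by 1.20. Msmo1, a sterol methyl oxidase of the cholesterol pathway, fell by 0.68 and Ptplad1, a dehydratase of fatty acid elongation, by 0.76 on the log2 scale. In the knockout 16 rose and 2 fell, where 27.5% and 14.7% of all genes did, and Acsl1 (log2 0.78) and Slc25a1, the mitochondrial citrate carrier (0.69), were among those that rose. The knockout split moved with the scaling, chosen as an alternative after seeing the data: 14 rose and 5 fell with quantile normalisation, 20 and 1 with median scaling, and 9 and 5 of 31 in the authors' values. Of 18 tested genes for fatty acid oxidation, 4 rose and 5 fell in wild type, and 7 rose and 3 fell in the knockout. With quantile normalisation the knockout counts were 2 and 4, with median scaling 7 and 0, and with the authors' values 1 and 3. By the interaction test, where 16.4% of all genes were higher and 28.3% lower, 7 of the 30 synthesis genes were higher in wild type and 10 lower, and 2 of the 18 oxidation genes higher and 5 lower.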

How the data were processed

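Scanner output came from Agilent Feature Extraction 10.7.3.1 on an mm9 array design, per the file headers. The deposited processed signal of a spot is an intensity with background already subtracted. The authors also deposited a table on the log2 scale, background-subtracted and quantile-normalised per its first line, used as an alternative.

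The processed signal was put on the log2 scale minus the array's 75th percentile. Spots flagged as outliers (122 to 196 per array) were removed, and replicate spots averaged by probe. Probes well above background on all 3 arrays in 1 or more groups, with 2 or more values in each group, were kept (22940 of 55681). The brightest stood for its gene (16497 genes). A limma model (version 3.58.1, R 4.3.3) of the 4 group means over all 12 arrays gave 5 contrasts, each adjusted by Benjamini-Hochberg. The script was tested on simulated data. Of 100 genes changed by 0.5 on the log2 scale, 41 were recovered in the wild-type contrast and 28 in the interaction. Of 100 changed by 1, 95 and 86 were. Far fewer genes changed there than in these data, so the shares recovered may differ here. A bound for a gene not above background raises the dim group's signal to the lowest averaged probe signal well above background on each array.

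Slide 2's files carry older gene names for 1849 spots, none of them members, so slide 1's names were used. Slide was also fitted as a block. Replicate numbers were not used as pairs in the main model. Over 18 same-numbered pairs, most of them across genotypes, the deviations correlated at -0.24 to 0.39, which does not settle whether samples were paired. Genes given in full had a log2 change of 1 or more either way with an adjusted p under 0.05 in any contrast, or the smallest adjusted p of their role in the wild-type response. The members and lists were chosen with earlier results of these data known. Figures were drawn with matplotlib 3.10.9. Alternatives were quantile and median scaling, normexp background, the authors' table, 2 other filters, the mean of probes, fewer arrays, both blocks and leaving out each array.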

Additional observations from a re-analysis of the deposited data

Results flagged for a closer look

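The wild-type and knockout responses to IL-4 differed by the interaction test for 25 members. Their log2 differences, wild-type response minus knockout response, are given in 2 groups by direction. For Elovl7, whose wild-type IL-4 level was not above background on any array, the printed value is fitted and its size is not measured. The largest negative values were those of Elovl7 (-4.99), Elovl6 (-1.02), Dhcr7 (-0.97), Stard4 (-0.90), Cyp51 (-0.82) and Mvd (-0.76). Smaller negative differences followed for Fdps (-0.68), Fdft1 (-0.64), Scd1 (-0.62), Nsdhl (-0.61, but -0.17 and not passing by a second probe), Mvk (-0.55) and Sqle (-0.52). Next in size came Pmvk (-0.48), Hmgcs1 (-0.47), Hsd17b7 (-0.46), Srebf2 (-0.45), Acly (-0.40) and Scd2 (-0.38). The smallest negative differences passing the test were Elovl5 (-0.36), Idi1 (-0.28), Scap (-0.28) and Lss (-0.26). Positive differences were those of Vldlr (2.74), Npc1 (0.59) and Npc2 (0.33). The SEs of these differences ran from 0.0665 to 0.515. Each rests on 3 arrays a group.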

How the results depend on the processing

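No member past the threshold in the reported value or in an alternative changed direction between them, in any of the 5 contrasts. In the wild-type response, 895 of 922 comparisons of a member with an alternative stayed on the same side of the threshold, 21 lost it and 6 gained it. With 1 array left out, the wild-type counts were 5 to 7 higher and 25 to 26 lower, those of the knockout 3 to 5 higher and 6 to 11 lower, the interaction 3 to 6 higher and 20 to 23 lower, knockout against wild-type control 0 to 9 higher and 0 to 1 lower, and knockout against wild type with IL-4 23 to 25 higher and 2 to 4 lower. Counts moved by over 1.5 times without knockout control 2 (6 fell and 3 rose in the knockout), knockout IL-4 array 1 (3 rose), knockout IL-4 array 2 (7 fell), knockout control 1 (5 higher in the interaction) and knockout IL-4 array 3 (6 higher in the interaction, 4 lower with IL-4). Between the controls, they moved without any 1 of the wild-type arrays or knockout controls, and knockout control 1 gave the 9. Without knockout IL-4 array 3, 1 was lower there.

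The knockout response is sensitive to the choices: the risen count of 5 was 1 with quantile normalisation, 10 with median scaling, 1 with the authors' table, 2 without the filter, 2 with only the arrays compared and 2 with slide as a block, and the fallen count of 11 was 18, 2 and, with no filter, only the compared arrays and slide block, 6, 6 and 5. Quantile normalisation gave 5 higher members for the interaction (3 reported) and 5 lower with IL-4 (2 reported). Between the controls, the 5 higher were 8 with quantile normalisation, 3 with median scaling, 2 with the authors' table, 0 without the filter, 2 with only the compared arrays and 1 with slide as a block, and the 0 lower were 6 with median scaling, 2 with normexp and 1 with the stricter filter. Under median scaling the all-gene median was -0.22 between controls (-0.04 reported) and -0.23 for the interaction (-0.10 reported). The cause of these shifts was not tested.

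Whether the replicate numbers pair the samples is not settled. The deviations of same-numbered control and IL-4 arrays correlated at 0.04, 0.07 and 0.03 in wild type. In the knockout they correlated at 0.32, -0.02 and 0.39, and knockout control 1 with knockout IL-4 array 2 at 0.31. With replicate number as a block, the wild-type counts were 6 and 26, the knockout counts 4 and 11, and the interaction counts 3 and 23. 3 arrays a group and a threshold on signal over background limit what can be read: Abca1 could not be tested. The wild-type fall of Acss2 was lost in 14 alternatives, the rise of Mylip in 6 and the interaction of Lss in 15.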

Other observations

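Knockout IL-4 array 3 stood apart from the other 2 arrays of its group for several members. Vldlr read 1.78 there against 0.46 and 0.66, Abcg1 1.11 against -0.10 and -0.07, and Fasn -0.64 against 0.05 and 0.08. For these genes knockout control 3 was also the most extreme of its group, in the same direction. Vldlr read 1.48 there against 0.14 and 1.13, Abcg1 0.015 against -0.70 and -0.41, and Fasn 0.12 against 0.71 and 0.51. The knockout groups had larger SDs over the members than the wild-type groups (median SD 0.083 and 0.093 against 0.063 and 0.051).

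Of the 16 members with more than 1 kept probe, 8 had every probe changed in the same direction past the threshold in wild type, 4 had none past it and 4 had some (Fads2, Ggps1, Insig2 and Mylip). In Fads2 and Ggps1 the probe that passed rose, while the probe used for the gene had a value below 0.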
